A study of Bos taurus with 96 samples.

Results

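Gene expression in liver at mid lactation (ML) was compared between 8 Fert+ and 8 Fert- cows, which supplied 16 of the 96 libraries of the series. All liver libraries labelled as mid lactation were used, 1 for each cow, and every gene was considered whether or not it had been discussed elsewhere. Both genotypes were Holstein cows held in 1 herd, with similar genetic merit for milk production, a mixture of parities within each genotype and different sires. Fert+ cows had very good, and Fert- cows very poor, genetic merit for fertility, judged by the breeding value for calving interval. The genotypes are therefore extremes of a breeding value and carry no single known allele, no treatment was applied, and ages were not given in the sources used here. The other libraries came from liver at late pregnancy (LP) and early lactation (EL) and from skeletal muscle, taken from the same cows.

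The liver of a lactating cow makes most of the glucose that the animal uses, packages and exports lipid, secretes plasma proteins and releases IGF-I in response to growth hormone. Sterol synthesis and fatty acid synthesis are run by enzyme genes that share the SREBP transcription factors as regulators. The same tissue produces acute-phase proteins when inflammatory cytokines rise, and cells of many types respond to interferons by transcribing antiviral genes and the genes of antigen presentation.

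Read pairs assigned to genes numbered 18223640 to 25254407 in the Fert+ libraries (median 22267088) and 15766907 to 21306869 in the Fert- libraries (median 19518918; two-sided exact permutation test, p = 0.0536). The genes detected numbered 15248 to 17021. Libraries of 2 Fert+ cows (430 and 3847) and 1 Fert- cow (829) held counts for a small set of genes that were near 0 in the other 13 libraries, and are here called counting batch B; 138 of the tested genes separated these 3 libraries from the rest. Sample quality weights, which measure how far a library lies from its group over all genes, were lowest for the Fert- cows 426 (0.423), 996 (0.504) and 829 (0.566). Hepatocyte markers were abundant in every library, with summed levels of 103884 to 207847 CPM (counts scaled to library size) in Fert+ and 79168 to 223078 CPM in Fert-, and 12 of 13 skeletal muscle markers were too low to test. Only 1765 of the 13235 genes tested (13.3%) had a symbol in the sources used here, and 193 of these came from the study's own list of DE genes in liver at ML. A list's count is therefore not independent of that choice, and counts for members outside the study's list are given beside it. The study's list was itself called from these libraries, so members outside it lean towards smaller differences than members on it. Symbols came from the study's DE lists for both tissues and every time-point, and from its tables of gene abundance. Members outside the ML list can therefore still owe their symbol to a DE list from the same cows. Which way their counts are biased against all genes was not tested. Neither count is an independent check.

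No gene reached an adjusted p under 0.05 for genotype (0.0% of 13235 genes; smallest adjusted p = 0.156), by edgeR's quasi-likelihood test with Benjamini-Hochberg adjustment, which is the source of every adjusted p below unless another tool is named. At an unadjusted p under 0.05 there were 1640 genes (12.4%), of which 708 (5.35%) were higher and 932 (7.04%) lower in Fert+. Differences above 2-fold at that threshold were found for 8 higher and 47 lower genes. DESeq2 called 77 of 11952 genes (0.644%), 43 higher and 34 lower, and an exact test with 1 common dispersion for all genes called 279 (2.11%), 90 higher and 189 lower; 29 genes were called by both. Since no gene passed the main test, the genes below are described as higher or lower in Fert+ with their values, and none is called DE. Counts of list members at ML are to be read beside the shares of all genes, 5.35% higher and 7.04% lower. CPM is not scaled to gene length, so levels are compared between cows and not between genes.

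**Figure D1:**
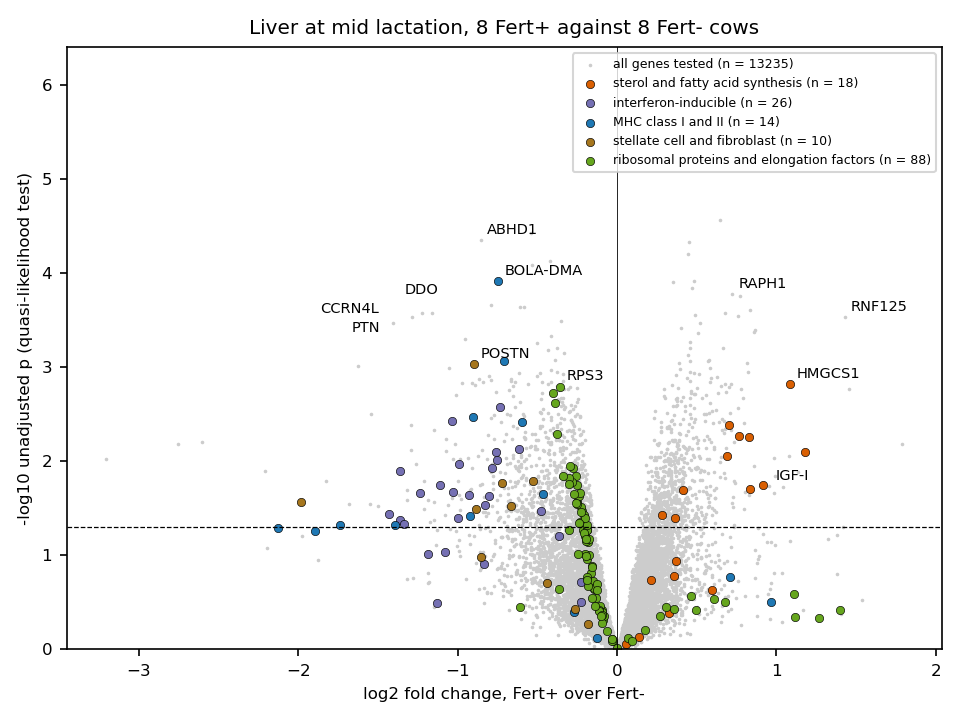
Log2 fold change (Fert+ over Fert-, x axis) against −log10 of the unadjusted p (y axis) for the 13235 genes tested, each point a gene and coloured by gene list. The sterol and fatty acid synthesis genes lie to the right of 0, and the interferon-inducible and stellate cell genes to the left.

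Genes of sterol synthesis were higher in Fert+. All 8 members tested had a positive fold change and 7 had an unadjusted p under 0.05, against 5.35% of all genes in that direction, with a median log2 fold change of 0.56 against −0.02 over all genes. HMGCS1, which encodes the synthase that makes HMG-CoA for the sterol pathway, ranged from 484 to 1272 CPM in Fert+ (median 737) and from 153 to 717 CPM in Fert- (median 370). All 8 Fert+ cows lay above the Fert- median and 6 Fert- cows lay below every Fert+ cow. The difference was 1.09 ± 0.29 on the log2 scale (SE), or 2.12-fold (adjusted p = 0.224; two-sided exact permutation test, p = 0.00202), and DESeq2 gave an adjusted p of 0.0275. HMGCS1 was not alone in this. Of 118 named genes, DESeq2 called 27 and the exact test with 1 common dispersion called 81.

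SQLE, the squalene epoxidase, ranged from 212 to 390 CPM in Fert+ (median 247) and from 60.3 to 296 CPM in Fert- (median 128). All 8 Fert+ cows were above the Fert- median, and the log2 fold change was 0.83 ± 0.26 (adjusted p = 0.27). For enzymes of the last steps to cholesterol, DHCR7 had a log2 fold change of 0.69 ± 0.24 and SC5DL of 0.37 ± 0.17. SC4MOL (0.36 ± 0.25) was the member with an unadjusted p above 0.05, and 1 Fert- cow, at 1221 CPM, exceeded all Fert+ cows. SCD, IFI6, GBP5 and CXCL9 below were added to the text after their values had been seen.

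Fatty acid synthesis showed the same direction with a smaller share of members past the threshold. All 10 members tested had a positive fold change (median 0.48) and 4 had an unadjusted p under 0.05. ACACA, the acetyl-CoA carboxylase that commits acetyl groups to fatty acids, ranged from 38.6 to 118 CPM in Fert+ (median 56.1) and from 26.6 to 55.1 CPM in Fert- (median 36.1). Its log2 fold change was 0.71 ± 0.22 (adjusted p = 0.253; two-sided exact permutation test, p = 0.00963), with 4 Fert+ cows above every Fert- cow and the others within the Fert- range. FASN, the fatty acid synthase, ranged from 56.5 to 153 CPM in Fert+ (median 106) and from 11.8 to 101 CPM in Fert- (median 43.6). Its log2 fold change was 0.83 ± 0.33 (adjusted p = 0.331), and 5 Fert+ cows lay above every Fert- cow.

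ACSS2, which activates acetate, the main substrate for fatty acid synthesis in ruminants, had a log2 fold change of 0.91 ± 0.35 (adjusted p = 0.328). PNPLA3, a lipid droplet acyltransferase and lipase, was low in both groups, at 1.45 to 6.95 CPM in Fert+ and 0.165 to 3.81 CPM in Fert-, with a log2 fold change of 1.18 ± 0.40. The desaturases and elongases differed less: FADS2 had a log2 fold change of 0.33 ± 0.39, ELOVL5 of 0.37 ± 0.22 and SCD of 0.60 ± 0.49. In SCD, the stearoyl-CoA desaturase, the Fert- cows spanned 11.5 to 224 CPM and so covered the whole Fert+ range of 55.8 to 164 CPM. CERS6, a ceramide synthase outside the lists, was higher in Fert+ at 24.1 to 51.3 CPM (median 41.6) against 10.3 to 29.3 CPM in Fert- (median 22.8), a log2 fold change of 0.86 ± 0.20 (adjusted p = 0.187).

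The low end of both lipid lists was held by the same 3 Fert- cows. For sterol synthesis the mean log2 difference from the 16-cow mean was −1.24 in cow 829, −0.86 in cow 426 and −0.76 in cow 996, while all 8 Fert+ cows were above the mean. For fatty acid synthesis it was −1.46 in cow 996, −0.98 in cow 426 and −0.70 in cow 829. These 3 cows are also those with the lowest quality weights. Without them, 4 of the 8 sterol genes were still higher at an unadjusted p under 0.05 with a median of 0.32, and 3 of the 10 fatty acid genes with a median of 0.19. The uniform sign was lost, as 7 of the 8 sterol and 7 of the 10 fatty acid genes then had a positive fold change. Of the members outside the study's own list for liver at ML, 3 of 4 sterol genes were higher at that threshold (median 0.36) and 0 of 6 fatty acid genes (median 0.27). Of those named in the abundance tables, 3 of 4 sterol genes were higher (median 0.39) and 0 of 3 fatty acid genes (median 0.33).

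At the earlier time-points neither list had a member past an unadjusted p under 0.05. At LP the median log2 fold change of the sterol genes was −0.03 and at EL −0.00, and that of the fatty acid genes −0.06 and 0.27. HMGCS1 had a log2 fold change of −0.02 ± 0.40 at LP and 0.11 ± 0.65 at EL, beside 1.09 ± 0.29 at ML. The genotype by time-point interaction was not significant for any of 13815 genes, with a smallest adjusted p of 0.9996 for ML against LP and 0.7229 for ML against EL, so a difference between time-points was not shown for these genes; 328 and 912 genes had an unadjusted interaction p under 0.05. All 3 time-points came from the same cows.

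**Figure D2:**
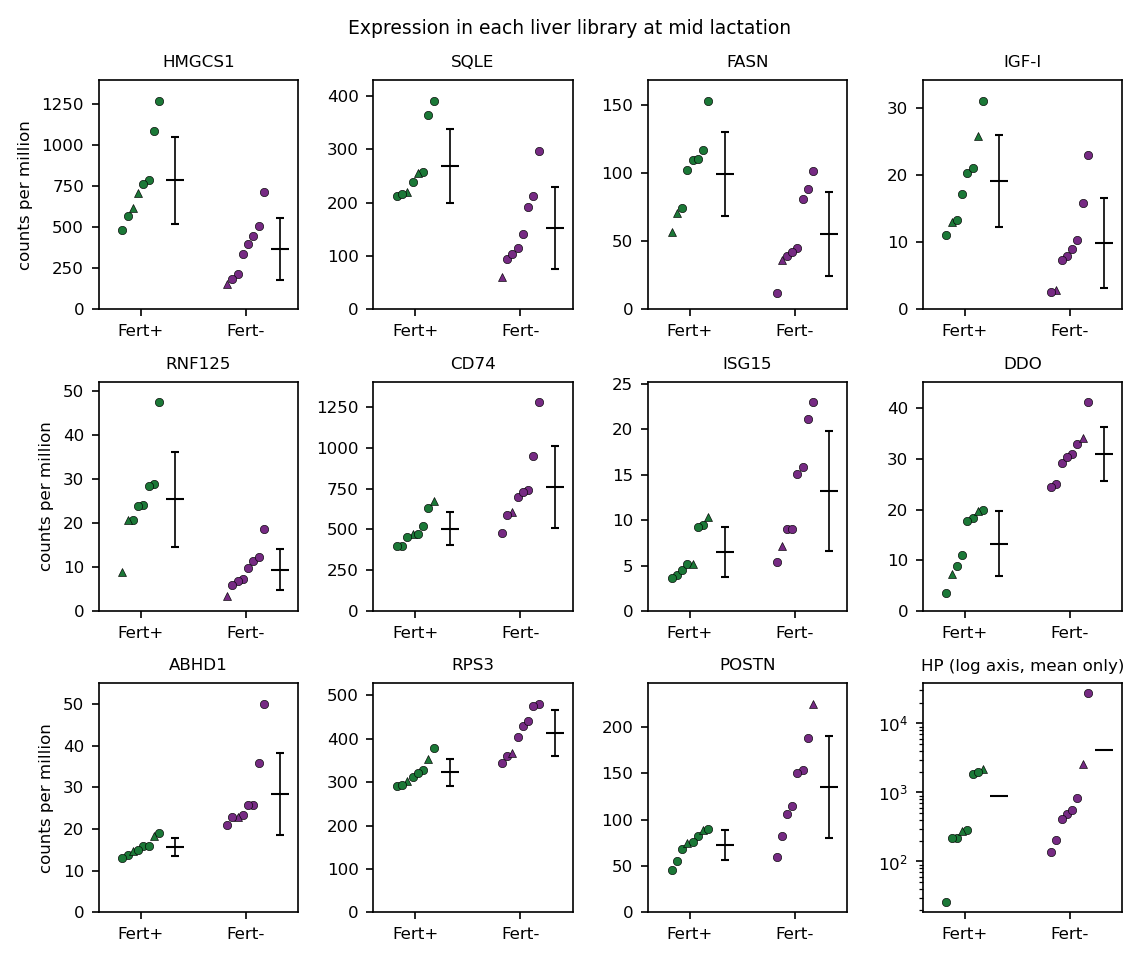
CPM of 12 genes in each liver library at ML (y axes, linear from 0 except HP, which has a log axis), Fert+ in green and Fert- in purple, triangles marking counting batch B and bars the mean and SD of 8 cows (mean only for HP). DDO and ABHD1 do not overlap between genotypes, whereas HP is set by 1 Fert- cow at 27183 CPM.

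Of the genes of fatty acid oxidation and gluconeogenesis, 1 passed an unadjusted p under 0.05 at ML. None of 17 oxidation and ketogenesis genes passed it, and their median log2 fold change was −0.06. Of 14 gluconeogenic genes, TAT alone passed that threshold. PCK1, the cytosolic PEP carboxykinase, had a log2 fold change of 0.09 ± 0.22 and groups that overlapped almost fully. TAT, which breaks down tyrosine and responds to glucocorticoids, ranged from 410 to 753 CPM in Fert+ (median 472) and from 364 to 958 CPM in Fert- (median 677), with a log2 fold change of −0.42 ± 0.17 (adjusted p = 0.353).

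In the somatotropic axis, IGF-I stood apart from its binding proteins. IGF-I ranged from 11 to 31 CPM in Fert+ (median 18.7) and from 2.65 to 22.9 CPM in Fert- (median 8.51). In 6 Fert- cows the level was below the lowest Fert+ cow, and the difference was 0.96 ± 0.37 on the log2 scale, or 1.94-fold (adjusted p = 0.33; two-sided exact permutation test, p = 0.0117). The other 6 members tested all had a negative log2 fold change and an unadjusted p above 0.05, among them IGFBP2 at −0.35 ± 0.21 and IGF2 at −0.12 ± 0.15. IGF-I had a log2 fold change of 0.32 ± 0.42 at LP and 0.70 ± 0.48 at EL. Without the 3 Fert- cows of low weight its log2 fold change was 0.61, and no member of the list passed an unadjusted p under 0.05.

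Genes induced by interferons were lower in Fert+. All 12 type I interferon-stimulated genes tested had a negative fold change, 8 with an unadjusted p under 0.05 against 7.04% of all genes in that direction, and their median was −0.80. ISG15, a ubiquitin-like protein joined to other proteins during the antiviral response, ranged from 3.60 to 10.3 CPM in Fert+ (median 5.20) and from 5.37 to 23.0 CPM in Fert- (median 12.1). All 8 Fert+ cows were below the Fert- median, and the log2 fold change was −1.03 ± 0.31 (adjusted p = 0.248; two-sided exact permutation test, p = 0.0168). MX1, an antiviral GTPase, ranged from 30.5 to 53.5 CPM in Fert+ (median 34.0) and from 34.6 to 96.2 CPM in Fert- (median 55.1), a log2 fold change of −0.61 ± 0.20 (adjusted p = 0.283).

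HERC6, a ligase of the ISG15 pathway, had a log2 fold change of −0.76 ± 0.25, and BST2 (ENSBTAG00000008021), which tethers virus particles to the cell surface, of −0.75 ± 0.26. IFI27, IFI6 and ISG12(B) each had 1 cow far above the rest in both groups. In IFI27 the Fert+ cow 3397 had 123 CPM and the Fert- cow 1000 had 296 CPM, against medians of 23.9 and 59.9 CPM, and the log2 fold change was −1.34 ± 0.62. IFITM3, which keeps viruses from entering cells, had a log2 fold change of −0.22 ± 0.17. RNF125, a ubiquitin ligase that marks the viral RNA sensor RIG-I for breakdown, went the other way: it ranged from 8.88 to 47.4 CPM in Fert+ (median 23.9) and from 3.46 to 18.6 CPM in Fert- (median 8.54). All Fert+ cows but 1 lay above every Fert- cow, and the log2 fold change was 1.43 ± 0.32 (adjusted p = 0.165; two-sided exact permutation test, p = 0.00171).

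The interferon gamma-inducible list gave 11 of 14 members lower at an unadjusted p under 0.05 and all 14 with a negative fold change (median −0.99). Since 11 members owe their symbol to the study's list of DE genes in liver at ML, and only 1 lies outside that list, these counts are not independent evidence of the direction. PSMB9, a subunit of the immunoproteasome that cuts peptides for MHC class I, ranged from 5.20 to 8.32 CPM in Fert+ (median 6.55) and from 4.46 to 18.6 CPM in Fert- (median 10.6), and 6 Fert- cows exceeded every Fert+ cow. Its log2 fold change was −0.73 ± 0.21 (adjusted p = 0.237). CXCL10, a chemokine that attracts activated T cells, ranged from 3.91 to 23.1 CPM in Fert+ (median 11.4) and from 8.43 to 78.8 CPM in Fert- (median 23.0), with a log2 fold change of −1.36 ± 0.49 (adjusted p = 0.306). CXCL9 (−1.36 ± 0.61), which binds the same receptor, and the guanylate-binding proteins GBP6 (−0.99 ± 0.35), GBP3 (ENSBTAG00000017670, −0.78 ± 0.28) and GBP5 (−1.43 ± 0.63) had the same sign.

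MHC class II genes, which present peptides to helper T cells, were lower in Fert+ for 4 of 8 members at an unadjusted p under 0.05, with a median of −0.73. BOLA-DMA, which helps to load peptides onto class II molecules, ranged from 6.84 to 10.6 CPM in Fert+ (median 8.37) and from 9.01 to 21.7 CPM in Fert- (median 14.4). All but 1 Fert- cow exceeded every Fert+ cow, and the log2 fold change was −0.74 ± 0.15 (adjusted p = 0.165; two-sided exact permutation test, p = 0.00109). BOLA-DRA, the class II alpha chain, ranged from 202 to 384 CPM in Fert+ (median 280) and from 272 to 707 CPM in Fert- (median 462), a log2 fold change of −0.71 ± 0.18 (adjusted p = 0.224). CD74, the invariant chain that escorts class II molecules, ranged from 397 to 674 CPM in Fert+ (median 472) and from 476 to 1278 CPM in Fert- (median 714), a log2 fold change of −0.59 ± 0.18 (adjusted p = 0.248).

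Among the DQ genes each genotype held cows at or near 0 and cows with high counts. BOLA-DQA2 ranged from 0 to 21.2 CPM in Fert+ and from 0 to 72.4 CPM in Fert- (−2.13 ± 1.01), BOLA-DQA5 from 0 to 11.3 CPM and from 0 to 31.4 CPM (−1.90 ± 0.91), and BOLA-DQA1 from 4.46 to 157 CPM and from 1.98 to 203 CPM (0.96 ± 0.92). The DQ genes vary between animals, and whether related copies share reads was not examined. Their counts are therefore uncertain, as is that of HLA-DQB2 (−1.39 ± 0.65). In MHC class I and the NKG2D ligands, 4 of 6 members were lower at an unadjusted p under 0.05. They were BOLA-NC (−0.90 ± 0.27), B2M, the light chain shared by class I molecules (−0.46 ± 0.19), MICB (−0.92 ± 0.41) and the BOLA copy ENSBTAG00000022590 (−1.74 ± 0.81). The BOLA copies may also share reads, which was not examined. B2M ranged from 1123 to 1479 CPM in Fert+ (median 1416) and from 1148 to 3401 CPM in Fert- (median 1703).

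The highest interferon and MHC levels were spread over several Fert- cows. Summed type I interferon-stimulated genes were highest in the Fert- cow 1000 (927.6 CPM), and the interferon gamma-inducible genes in the Fert- cows 982 (358.3 CPM), 426 (336.4 CPM) and 1000 (292.1 CPM). Without the 3 cows of low weight, 9 of 12 type I and 10 of 15 gamma-inducible genes were lower at an unadjusted p under 0.05. For class II this count was 3 of 8 and for class I 2 of 7. Cows 996 and 829 lay below the 16-cow mean for type I (−0.545 and −0.256) and gamma-inducible genes (−0.845 and −0.154). Cow 426 lay above it (0.706 and 1.198). Leaving out single cows moved the type I count between 5 and 9, the gamma-inducible count between 6 (without the Fert- cow 982) and 12, the class II count between 3 and 6 and the class I count between 1 (without the Fert- cow 426) and 4. Among members outside the study's list, 2 of 4 type I, 1 of 2 class II and 1 of 2 class I genes and 0 of 1 gamma-inducible gene were lower at that threshold. Among members named in the abundance tables, 0 of 1 type I, 2 of 2 class II and 1 of 2 class I genes were lower. No gamma-inducible gene was named there. At LP, 7 of 10 type I genes tested were lower in Fert+ at an unadjusted p under 0.05 and 0 of 12 gamma-inducible genes, and at EL 0 of 11 and 2 of 12. Over all genes, 3.46% were lower in Fert+ at that threshold at LP and 4.69% at EL. Of the 12 type I members tested at ML, 1 was named in the abundance tables. The others owe their symbol to the study's DE lists, and liver at LP is among the groups those lists cover. The LP count is therefore not independent of that choice either.

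**Figure D3:**
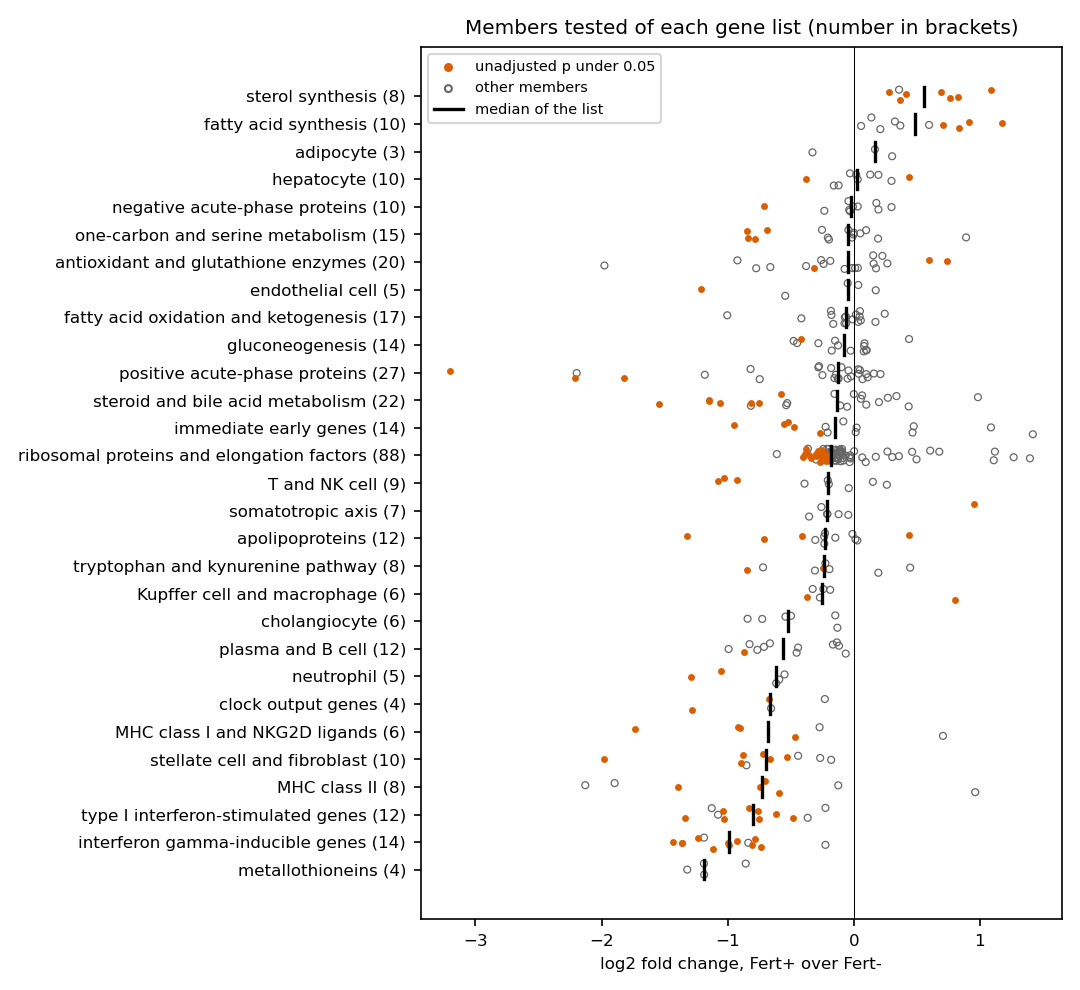
Log2 fold change (Fert+ over Fert-, x axis) of the members tested in each gene list with at least 3 of them (y axis, number of members in brackets), filled points for an unadjusted p under 0.05 and a bar at the median. Of the lists shown, sterol synthesis (median 0.56) and fatty acid synthesis (0.48) are at the top, and the metallothioneins (−1.19) and interferon gamma-inducible genes (−0.99) at the bottom.

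Few positive acute-phase proteins passed the threshold, and 1 cow held the highest value of several. Of 27 members, 3 were lower and 0 higher in Fert+ at an unadjusted p under 0.05 (median −0.13), against 7.04% of all genes in that direction, and 0 of the 20 members outside the study's list passed (median −0.04). Without the 3 cows of low weight 1 member was lower, 18 of the 27 had a positive fold change and the median was 0.12. Haptoglobin, HP, which binds free haemoglobin, had a median of 278 CPM in Fert+ (range 25.9 to 2184) and 517 CPM in Fert- (range 137 to 27183). The highest value belonged to the Fert- cow 996, and without that cow the log2 fold change went from −2.20 ± 1.19 to 0.24. The serum amyloids SAA1 (−0.82 ± 0.68) and SAA2 (−1.18 ± 0.87) and the fibrinogen chain FGB (−0.12 ± 0.32) also took their highest value in cow 996, and all 3 changed sign without it.

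The 3 members past the threshold were SAA3 (−1.82 ± 0.68), M-SAA3.2 (−2.21 ± 0.79) and a copy of the complement gene C1R (ENSBTAG00000037743, −3.20 ± 1.08). SAA3 reached 158 CPM in the Fert- cow 996, where the next Fert- cow had 30.3 CPM. M-SAA3.2 reached 11.2 CPM in the Fert- cow 829, where the next had 4.17 CPM. M-SAA3.2 and this C1R copy had medians of 0.35 and 0.889 CPM in Fert+ and 1.18 and 0.748 CPM in Fert-, and for C1R 3 Fert- cows lay above every Fert+ cow. C3, the central complement protein, had a log2 fold change of 0.16 ± 0.16. The metallothioneins, which bind zinc and copper, had 0 of 4 members past the threshold and a median of −1.19, and without the 3 cows of low weight the median was −0.06. MT2 had its highest value, 319 CPM, in cow 996.

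Proteins exported with lipid were divided. APOB, the structural protein of very-low-density lipoprotein, ranged from 1828 to 2908 CPM in Fert+ (median 2566) and from 1012 to 2949 CPM in Fert- (median 1598). All 8 Fert+ cows were above the Fert- median, and the log2 fold change was 0.44 ± 0.18 (adjusted p = 0.357). APOA1, the main protein of high-density lipoprotein, went the other way, at 87.0 to 258 CPM in Fert+ (median 122) and 169 to 412 CPM in Fert- (median 198), with a log2 fold change of −0.71 ± 0.23 (adjusted p = 0.27; two-sided exact permutation test, p = 0.00792). All but 2 Fert+ cows were below every Fert- cow.

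APOC2, the cofactor of lipoprotein lipase (−0.41 ± 0.17), and APOA4 (−1.32 ± 0.51) were lower at an unadjusted p under 0.05 too, and APOE had a log2 fold change of −0.23 ± 0.11. APOA4 rested on the Fert- cow 996 at 439 CPM, without which the log2 fold change was −0.62. Albumin, ALB, had medians of 106278 CPM in Fert+ and 82543 CPM in Fert- with a log2 fold change of 0.30 ± 0.24, and transferrin, TF, a log2 fold change of 0.20 ± 0.19. APOA1 was the 1 of 10 negative acute-phase proteins past the threshold, and 0 of the 9 outside the study's list passed. Of 12 apolipoproteins, 3 were lower and 1 higher, and 1 of the 10 outside that list passed in each direction.

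The 2 genes with a symbol whose genotypes did not overlap were DDO and ABHD1, both lower in Fert+, among 11 such genes (0.0831% of those tested; 3 higher and 8 lower). DDO, which oxidises D-aspartate in peroxisomes, ranged from 3.57 to 19.9 CPM in Fert+ (median 14.3) and from 24.5 to 41.1 CPM in Fert- (median 30.6). The means were 13.3 ± 6.38 CPM in Fert+ and 31.0 ± 5.31 CPM in Fert- (SD, n = 8). The log2 fold change was −1.23 ± 0.27 (adjusted p = 0.165), and it was −1.17 ± 0.41 at LP and −1.41 ± 0.54 at EL. A two-sided exact permutation test at ML gave p = 0.000155, the smallest that 12870 arrangements allow. Groups that do not overlap always give that value, so it adds nothing to the lack of overlap. ABHD1, a hydrolase-domain protein, ranged from 13.1 to 19.1 CPM in Fert+ (median 15.4) and from 20.9 to 50 CPM in Fert- (median 24.5), with a log2 fold change of −0.85 ± 0.16 (adjusted p = 0.156), beside −0.56 ± 0.40 at LP, −0.92 ± 0.33 at EL and −0.88 ± 0.28 in muscle at ML.

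Several enzymes and transporters were lower in Fert+. SLC22A16, a carnitine transporter, ranged from 1.12 to 8.85 CPM in Fert+ (median 3.85) and from 4.92 to 24.2 CPM in Fert- (median 11.7), a log2 fold change of −1.63 ± 0.41 (adjusted p = 0.224) beside −1.63 ± 0.57 at LP and −1.04 ± 0.64 at EL. MIOX, the oxygenase that opens myo-inositol, had a log2 fold change of −1.16 ± 0.26 (adjusted p = 0.165) at levels of 1.18 to 7.97 CPM. In the kynurenine pathway of tryptophan breakdown 2 of 8 members were lower at an unadjusted p under 0.05, against 7.04% of all genes. They were IDO2 (−0.85 ± 0.28) and HAAO (−0.25 ± 0.11), and outside the study's list 1 of 6 passed. Without the Fert+ cow 3397 the count was 1. IDO2, a dioxygenase of the first step, ranged from 37.8 to 145 CPM in Fert+ (median 61.2) and from 75.8 to 164 CPM in Fert- (median 137), and 7 Fert+ cows were below the Fert- median.

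Steroid and bile acid metabolism had 7 of 22 members lower and 0 higher at an unadjusted p under 0.05, against 7.04% of all genes lower. The count was 3 of 21 without batch B, 3 of 21 without the 3 cows of low weight and 4 without the Fert- cow 829. They included CH25H, which makes 25-hydroxycholesterol (−1.54 ± 0.45, at or below 2.79 CPM), CYP3A5 (ENSBTAG00000005450, −0.58 ± 0.18), AKR1C1 (ENSBTAG00000022570, −0.82 ± 0.28), UGT2B4 (ENSBTAG00000022205, −0.75 ± 0.31) and CYP11A1, the side-chain cleavage enzyme (−1.15 ± 0.47). Outside the study's list 1 of 14 passed, and the copies of CYP3A5, AKR1C1 and UGT2B4 may share reads, which was not examined. In one-carbon and serine metabolism 4 of 15 members were lower at an unadjusted p under 0.05, against the same 7.04% of all genes. They were PSPH (−0.84 ± 0.37), MTHFD2 (−0.79 ± 0.28), GNMT (−0.84 ± 0.32) and BHMT (−0.69 ± 0.33). The median of that list was −0.04, its count was 2 without the Fert+ cow 3434, and 1 of 11 members outside the study's list was lower. Arginase, ARG1, of the urea cycle had a log2 fold change of −0.38 ± 0.18. Of 20 antioxidant genes, 2 were higher and 1 lower at an unadjusted p under 0.05, against 5.35% of all genes higher and 7.04% lower. The list median was −0.04. The higher ones were GCLC, which makes the glutathione precursor (0.74 ± 0.28), and GSTM2 (0.59 ± 0.26). The lower one was PRDX2, a peroxiredoxin (−0.31 ± 0.14). Outside the study's list 1 of 16 passed in each direction. GPX3, the secreted glutathione peroxidase, had a log2 fold change of −1.98 ± 0.99 with a Fert- range of 45.4 to 3846 CPM, and its unadjusted p was above 0.05.

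Of 4 clock output genes 2, and of 14 immediate early genes 5, were lower in Fert+ at an unadjusted p under 0.05, against 7.04% of all genes, and 0 were higher. Outside the study's list these counts were 1 of 3 and 4 of 11. In both lists 0 members tested were named in the abundance tables, so all owe their symbol to one of the study's DE lists. CCRN4L (nocturnin), a rhythmic hepatic enzyme, ranged from 2.07 to 4.96 CPM in Fert+ (median 2.76) and from 3.55 to 17.3 CPM in Fert- (median 6.63), and the log2 fold change was −1.29 ± 0.29 (adjusted p = 0.165). NR1D1, the clock repressor REV-ERB alpha, had a log2 fold change of −0.67 ± 0.20, and all Fert+ cows but 1 lay below the lowest Fert- cow, at 9.84 CPM. The hour at which each biopsy was taken was not given in the sources used here. GADD45B, induced by stress, ranged from 1.97 to 5.19 CPM in Fert+ (median 3.83) and from 4.95 to 9.76 CPM in Fert- (median 6.32), a log2 fold change of −0.95 ± 0.23 (adjusted p = 0.203). ZFP36 (−0.27 ± 0.10), MYC (−0.52 ± 0.20) and BTG2 (−0.47 ± 0.20) were 3 others among the 5 immediate early genes past the threshold. In that list 6 members had a positive fold change, up to 1.42, and the median was −0.14. The count of lower members was 1 of 14 without batch B and 2 of 14 without the 3 cows of low weight.

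Genes for ribosomal proteins and elongation factors, the machinery of translation, were slightly lower in Fert+. Of 88 members tested, 26 were lower and 0 higher at an unadjusted p under 0.05, against 7.04% of all genes lower and 5.35% higher. The median was −0.18, and the 26 lay between −0.40 and −0.19. RPS3 ranged from 291 to 379 CPM in Fert+ (median 317) and from 344 to 480 CPM in Fert- (median 417), a log2 fold change of −0.36 ± 0.10 (adjusted p = 0.224; two-sided exact permutation test, p = 0.0014). RPS21 (−0.40 ± 0.11) and RPL35A (−0.39 ± 0.11) were close to it.

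Of the 88 members, 13 separated the counting batches, with log2 fold changes of 0.07 to 1.40, and 73 of the other 75 had a negative fold change. Ribosomal genes have many processed copies that can share reads. Their count was 30 without the 3 libraries of batch B, and it ranged from 13 (without the Fert- cow 164) to 47 (without the Fert+ cow 3847) when single cows were left out. Outside the study's list 26 of 84 were lower. At LP, 9 of 88 were higher and 0 lower in Fert+ at an unadjusted p under 0.05, against 3.08% higher and 3.46% lower over all genes, and at EL 13 were lower, against 4.69% of all genes. MYL6, a myosin light chain of nonmuscle cells, showed a like size of difference (−0.39 ± 0.10), with 7 Fert- cows above every Fert+ cow.

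Markers of cell types other than hepatocytes were examined beside these lists. In bulk tissue, fewer cells of a type and less RNA per cell cannot be told apart. Markers of stellate cells and fibroblasts, which make the matrix of the liver, were lower in Fert+ for 6 of 10 members at an unadjusted p under 0.05 and negative for all 10 (median −0.69), and their sum ranged from 240.8 to 512.8 CPM in Fert+ and from 343.4 to 1231 CPM in Fert-. POSTN, a matrix protein, ranged from 45.6 to 89.8 CPM in Fert+ (median 75.4) and from 59.5 to 225 CPM in Fert- (median 132), and 6 Fert- cows exceeded every Fert+ cow. Its log2 fold change was −0.89 ± 0.23 (adjusted p = 0.224), and DCN (−0.53 ± 0.20), LOXL1 (−0.72 ± 0.27), SPARC (−0.66 ± 0.28) and SFRP2 (−1.98 ± 0.82) also passed the threshold. SFRP2 had a median under 1 CPM over all cows. PTN, a secreted growth factor, had a log2 fold change of −1.41 ± 0.32 (adjusted p = 0.17).

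The stellate sum was highest in the Fert- cows 829 (1231 CPM) and 426 (902.6 CPM), which were also the lowest for sterol synthesis. Without the 3 cows of low weight 3 of 10 stellate markers were lower (median −0.35), and without batch B 2 of 10 (median −0.45), and outside the study's list 2 of 5 were lower. Cholangiocyte markers had 0 of 6 past the threshold and a median of −0.52, with a sum of 523.6 CPM in cow 426 against 99.68 to 269.6 CPM over all Fert+ cows. Of the neutrophil markers, 5 of 15 were testable and 2 were lower, LTF (−1.29 ± 0.43) and BPI (−1.05 ± 0.27), with 0 of 3 outside the study's list. BPI itself had a median under 1 CPM over the 16 cows, as did S100A8, S100A9 and ELA2.

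Of 6 macrophage markers tested, 5 had a negative fold change and 1 a positive one (median −0.25). At an unadjusted p under 0.05, 1 was higher and 1 lower, against 5.35% and 7.04% of all genes. The higher one was MARCO, a scavenger receptor of Kupffer cells (0.80 ± 0.32), which is on the study's list. The lower one was C1QA, a complement component (−0.37 ± 0.15). All 12 plasma and B cell markers tested were negative (median −0.56), and 1 of them, FCRL5, a receptor of B cells, passed the threshold (−0.87 ± 0.41). The median was −0.11 without the Fert- cow 426. Without the 3 cows of low weight it was −0.25, with 11 of 13 members negative. Their summed level had a median of 317.3 CPM in Fert+ and 288.6 CPM in Fert-. IGHG1 and IGLL1, of antibody heavy and light chains, had their highest values in the Fert- cow 426, at 660 and 611 CPM against Fert- medians of 73.8 and 94.7 CPM. Of T and NK cell markers 3 of 9 were lower at an unadjusted p under 0.05, of endothelial markers 1 of 5, and of adipocyte markers 0 of 3, against 7.04% of all genes. Outside the study's list 0 of 6 T and NK cell, 0 of 4 endothelial and 0 of 8 plasma and B cell markers were lower. The T and NK cell count was 1 without the Fert- cow 164, and the endothelial count 0 without the Fert- cow 829. Hepatocyte markers had a median of 0.03. The erythroid list had 2 of 7 members tested, among them KEL at 1.32 ± 0.68, and haemoglobin genes had a median under 1 CPM. The part of these markers in the differences of the interferon, MHC and lipid lists was not tested.

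**Figure D4:**
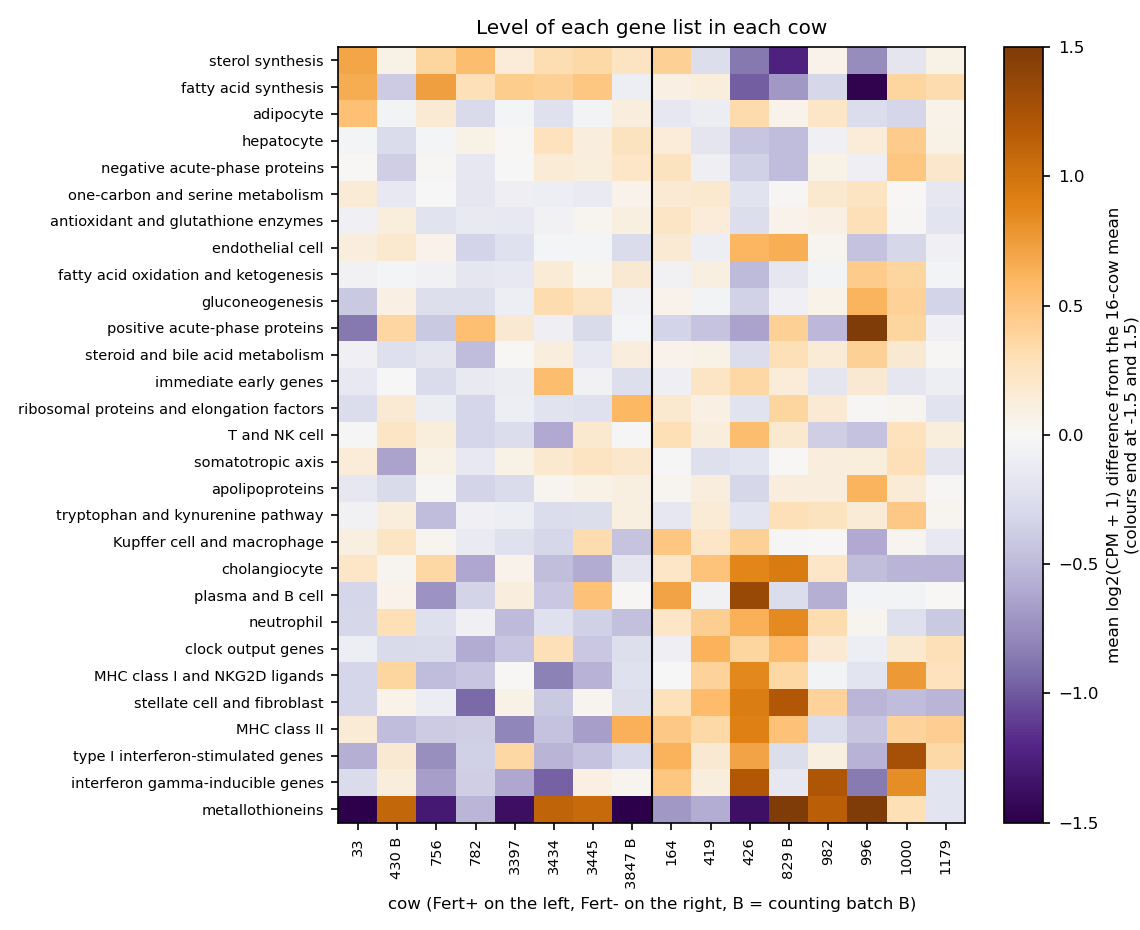
Mean difference of log2(CPM + 1) from the 16-cow mean (colour scale) for each gene list (rows) in each cow (columns, Fert+ left and Fert- right, B marking counting batch B). The Fert- cows 426, 829 and 996 hold the lowest sterol synthesis values, and 426 and 829 the highest stellate cell values.

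Among the remaining genes with the smallest p, several were higher in Fert+. RAPH1 (lamellipodin), which binds actin regulators at the cell edge, ranged from 14.5 to 23.6 CPM in Fert+ (median 19.1) and from 6.92 to 16.5 CPM in Fert- (median 11.3), with 7 Fert- cows below every Fert+ cow. Its log2 fold change was 0.72 ± 0.15 (adjusted p = 0.165), beside 0.13 ± 0.17 at LP and 0.23 ± 0.31 at EL. TUBA1C (ENSBTAG00000039992), a tubulin with near-identical copies (0.84 ± 0.18), and STON2, an endocytic adaptor (0.76 ± 0.17), each had 6 Fert+ cows above every Fert- cow. LRRC8E, a subunit of volume-regulated anion channels (0.87 ± 0.20), PALM2 (0.82 ± 0.21), C8H9orf152 (0.82 ± 0.21) and FAT1, a large cadherin (0.71 ± 0.19), completed the 10 named genes with the smallest p in that direction.

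The smallest adjusted p of all, 0.156, was shared by ABHD1 and genes without a symbol. ENSBTAG00000011683 ranged from 30.8 to 42.8 CPM in Fert+ and from 21.6 to 30.4 CPM in Fert- (0.45 ± 0.09), with no overlap. ENSBTAG00000014636 had a log2 fold change of 0.65 ± 0.12. ENSBTAG00000013613 ranged from 7.87 to 10.5 CPM in Fert+ and from 11.9 to 19.3 CPM in Fert- (−0.54 ± 0.10), with no overlap. ENSBTAG00000024909 had a log2 fold change of −0.42 ± 0.08. Of the small non-coding RNA, 2 of 25 were testable, a 7SK copy (ENSBTAG00000043250, −1.29 ± 0.39) and bta-mir-6518 (−1.31 ± 0.54), and counts of such short RNA in libraries of polyadenylated RNA are uncertain.

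**Figure D5:**
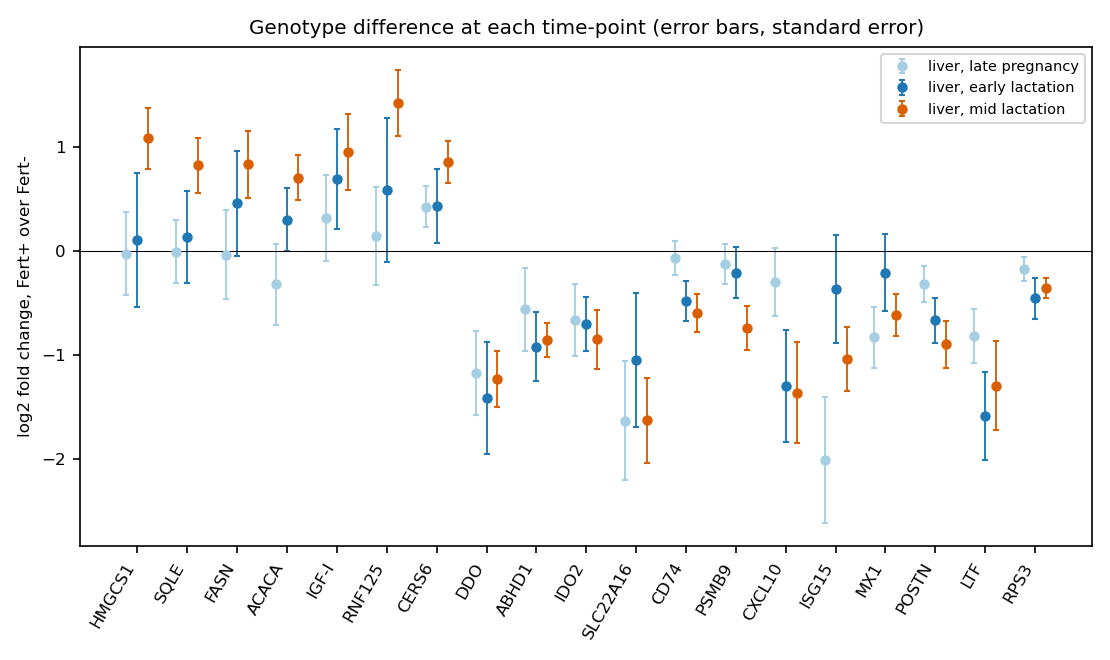
Log2 fold change (Fert+ over Fert-, y axis) with its SE for 19 genes (x axis) in liver at LP, EL and ML. DDO, ABHD1, SLC22A16 and IDO2 are below 0 at all 3 time-points, whereas HMGCS1, SQLE and RNF125 are largest at ML.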

How the data were processed

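The values are read-pair counts per Ensembl70 gene (UMD3.1), deposited by the authors without normalization as 1 file per library. The authors prepared polyadenylated RNA libraries from biopsies, used Trimmomatic for trimming, STAR for alignment, Samtools to keep properly paired reads and featureCounts for the counts. Further deposited tables with 96 count columns without sample names were not used, nor were the study's own fold changes and p-values. Symbols were taken from the names in the study's supplementary tables (2156 of 24616 identifiers). Library and genotype come from the labels.

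Counts were compared with edgeR 4.0.16 (TMM scaling, filterByExpr, robust quasi-likelihood test, two-sided, Benjamini-Hochberg adjustment, threshold 0.05) in R 4.3.3 over the 16 libraries, with limma 3.58.1 and DESeq2 1.42.0 as alternatives. CPM used TMM library sizes, and permutation tests used log2(CPM + 1) in Python 3.11.15 with scipy 1.17.1. The SE was the log2 fold change over the root of the F statistic. The test was checked on simulated counts. Over the 56 pairs of libraries within a genotype, the lowest chi-square divided by the number of genes was 29.3, so each library was counted once. Nothing in the labels says more of the replicates than that they are separate cows. The interaction of genotype and time-point was estimated on all 48 liver libraries, 3 from each cow. Batch B was defined by 19 genes with a median of at most 2 counts and at least 50 in single libraries.

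Members of lists, the lists and the part of the series described were chosen with earlier results of these data known. Named genes were the 10 with a symbol and the smallest p in each direction, those the study discusses for liver at ML, up to 4 members of each list by smallest p under 0.05 and up to 2 by highest CPM, and those without overlap. Alternatives without the 3 libraries of lowest quality weight, and for the lists without single cows, with RLE scaling and with a batch term, were added after seeing the data. Results for some genes that the rule names are not reported here.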

Additional observations from a re-analysis of the deposited data

Results flagged for a closer look

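For 118 genes, the 8 values of each genotype were searched for a highest or lowest cow set apart from the rest by Dixon's test. Chance alone meets that test in about 1 of 20 groups of normally distributed values. It was run on CPM, for which that rate need not hold, so the number of groups flagged cannot be read as an excess. Of the 236 groups, 40 held such a value. The Fert- cow 996 held 8 of them, and they were HP at 27183 CPM, SAA1 at 3574 CPM, SAA2 at 3873 CPM, SAA3 at 158 CPM, FGB at 61057 CPM, MT2 at 319 CPM, APOA4 at 439 CPM and CCRN4L at 17.3 CPM. In HP the next Fert- cow had 2618 CPM. The library of cow 996 also had the lowest number of genes detected, 15248, and the fewest read pairs, 15766907.

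The Fert- cow 829 held 6 high values, in APOA1 (412 CPM), M-SAA3.2 (11.2 CPM), GNMT (22.2 CPM), NR1D1 (22.1 CPM), LOXL1 (45.7 CPM) and the 7SK copy (8.71 CPM). The Fert- cow 426 held 5, in IGLL1 (611 CPM), IGHG1 (660 CPM), CH25H (2.79 CPM), MTHFD2 (4.43 CPM) and KEL (9.49 CPM). In IGHG1, of antibody heavy chains, the next Fert- cow had 108 CPM.

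Interferon-stimulated genes had 1 such cow in each genotype. The Fert+ cow 3397 had 123 CPM of IFI27, 11.7 CPM of ISG12(B) and 79.6 CPM of IFI6. The Fert- cow 1000 had 296 CPM of IFI27, 20.4 CPM of ISG12(B) and 195 CPM of IFI6, and also 19.3 CPM of ENSBTAG00000013613.

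Among Fert+ cows, 3434 was highest for TAT (753 CPM) and KEL (22 CPM) and lowest for B2M (1123 CPM) and ENSBTAG00000013613 (7.87 CPM). Cow 430 was highest for M-SAA3.2 (1.98 CPM), GPX3 (1056 CPM) and AKR1C1 (50.7 CPM), cow 33 for UGT2B4 (186 CPM), and cow 3847 for CXCL9 (32.7 CPM) and FCRL5 (4.68 CPM). Cow 782 was lowest for DCN (58.4 CPM). The remaining values were high ones in Fert- cows, namely BOLA-DQA1 in cow 982 (203 CPM), and PSPH (55.3 CPM) and BTG2 (37.3 CPM) in cow 419.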

How the results depend on the processing

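No gene was called at an adjusted p under 0.05 under any setting except DESeq2 (77 genes) and edgeR's exact test with 1 common dispersion (279 genes). The count at an unadjusted p under 0.05 was 1640, and 2479 under limma-voom with sample quality weights. Leaving out single cows gave 0 calls each time, and 1285 to 2106 genes at an unadjusted p under 0.05. The share of those genes that were higher in Fert+ was 43.2%, and it was 53.9% without the Fert- cow 426 and 52.3% with quality weights. With the cow as a replicate block, the genotype by time-point interactions again gave 0 genes. No paired analysis was possible for the genotype difference itself because each cow belongs to 1 genotype.

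Of 3186 log2 fold changes recomputed for 118 genes, 24 changed sign. Without the 3 libraries of lowest quality weight, a setting chosen after seeing the data, the values were −0.00301 for SC4MOL, −0.11 for FADS2, 1 for HP, 0.543 for SAA1, 0.965 for SAA2, 0.152 for FGB, 0.394 for MT1A, 0.556 for GPX3, 0.125 for IGLL1 and 0.445 for IGHG1. DESeq2 gave 0.251 for HP and 0.407 for SAA2. Quality weights gave 0.0561 for SAA2, 0.167 for FGB and 0.042 for IGHG1, and limma-voom 0.0676 for FGB. Leaving out single cows spanned −3.75 to 0.189 for ISG12(B) (high without the Fert- cow 1000), −2.54 to 0.239 for HP, −1 to 0.127 for SAA1, −1.42 to 0.415 for SAA2 and −0.244 to 0.303 for FGB (all without the Fert- cow 996). The span was −0.00733 to 0.257 for PCK1, −0.879 to 0.106 for IGLL1 and −0.885 to 0.32 for IGHG1, the last 2 without the Fert- cow 426. The count of stellate markers lower in Fert+ moved between 3 (without the Fert- cow 426) and 7, and that of immediate early genes between 3 and 6. Of 150 list medians recomputed under alternatives, 24 moved beyond a set limit. The cause of these changes was not tested.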
